A study of Mus musculus with 8 samples.

Results

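The genes described are the components of the spliceosome in mouse white fat: every gene whose deposited annotation held the Gene Ontology cellular component term for the spliceosomal complex in any library. The term held 126 of the 18691 genes in the files, and a gene not listed in a library was taken as 0. Epididymal white adipose tissue of C57BL/6J mice aged 16 weeks was compared between animals labelled Mrp4 KO (Mrp4-/-) and animals labelled wild type (WT), with 4 libraries of polyadenylated RNA in each group and the replicate numbers 1, 2, 4 and 5 in the first and 1, 2, 3 and 4 in the second. Strain, tissue and age were the same in both groups, and what was altered in the Mrp4 allele was not given in the labels used here. Mrp4, encoded by Abcc4, is a membrane transporter that exports cyclic AMP and prostaglandins. Whether each library stands for its own mouse is not stated, and the p-values therefore describe the spread among 8 libraries, which may be technical. In whole tissue, fewer cells of a type and less RNA per cell cannot be told apart.

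The spliceosome removes introns from messenger RNA precursors. Small nuclear ribonucleoproteins (snRNPs) built on rings of Sm or LSm proteins recognise the splice sites and the branch site. The U4/U6 and U5 particles and the Prp19 complex then join before the catalytic steps. A separate minor spliceosome with U11 and U12 particles serves a rare class of introns. HnRNP and SR proteins bind the precursor and set which sites are used, and the exon junction complex marks the joined exons.

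The targeted gene was examined first as a check of the labels. Abcc4 had 3.54, 3.68, 3.89 and 3.31 FPKM in the KO-labelled libraries, against 3.59, 3.33, 3.81 and 3.33 FPKM in the WT libraries. The groups overlapped, with a log2 fold change of -0.05 ± 0.08 (SE; edgeR adjusted p = 0.692), so the transcript level did not separate the labels, and the groups are called KO-labelled and WT throughout. Fold changes are KO-labelled over WT, from edgeR's quasi-likelihood test on the expected counts with TMM scaling, and a gene is said to have risen or fallen where its p, adjusted by the Benjamini-Hochberg method over all 14257 tested genes, was under 0.05. FPKM, the authors' level of fragments per transcript length and sequencing depth, is not TMM scaled, and values are listed in the order of the replicate numbers. Expected counts summed to 14064681 to 14700114 per library. Of all tested genes 10.2% rose and 8.05% fell, so that 55.9% of the calls were rises, a share of 74.1% under scaling by library size alone.

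Spliceosome transcripts were mostly lower in the KO-labelled libraries. Of the 126 members 116 passed the filter on low counts, and of these 24 fell (20.7%, against 8.05% of all tested genes) and 1 rose (0.862%, against 10.2%). The fitted fold change was below 0 for 99 of the 116 (85.3%), against 50.5% of all tested genes, and with scaling by library size alone these shares were 73.3% and 39.7%. The median log2 fold change was -0.16 over the tested members and -0.003 over all tested genes. The changes were small, since the members that fell did so by between 13.7% and 30.7%. Together the members held 0.812%, 0.804%, 0.783% and 0.751% of the expected counts in the KO-labelled libraries, against 0.857%, 0.817%, 0.877% and 0.86% in the WT libraries, and the groups did not overlap. Scaling by library size alone moved the median of all genes up by 0.07 on the log2 scale and left 14 members that fell, beside 4.77% of all tested genes. The difference between the members' median and that of all genes was -0.15 with either scaling.

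**Figure D1:**
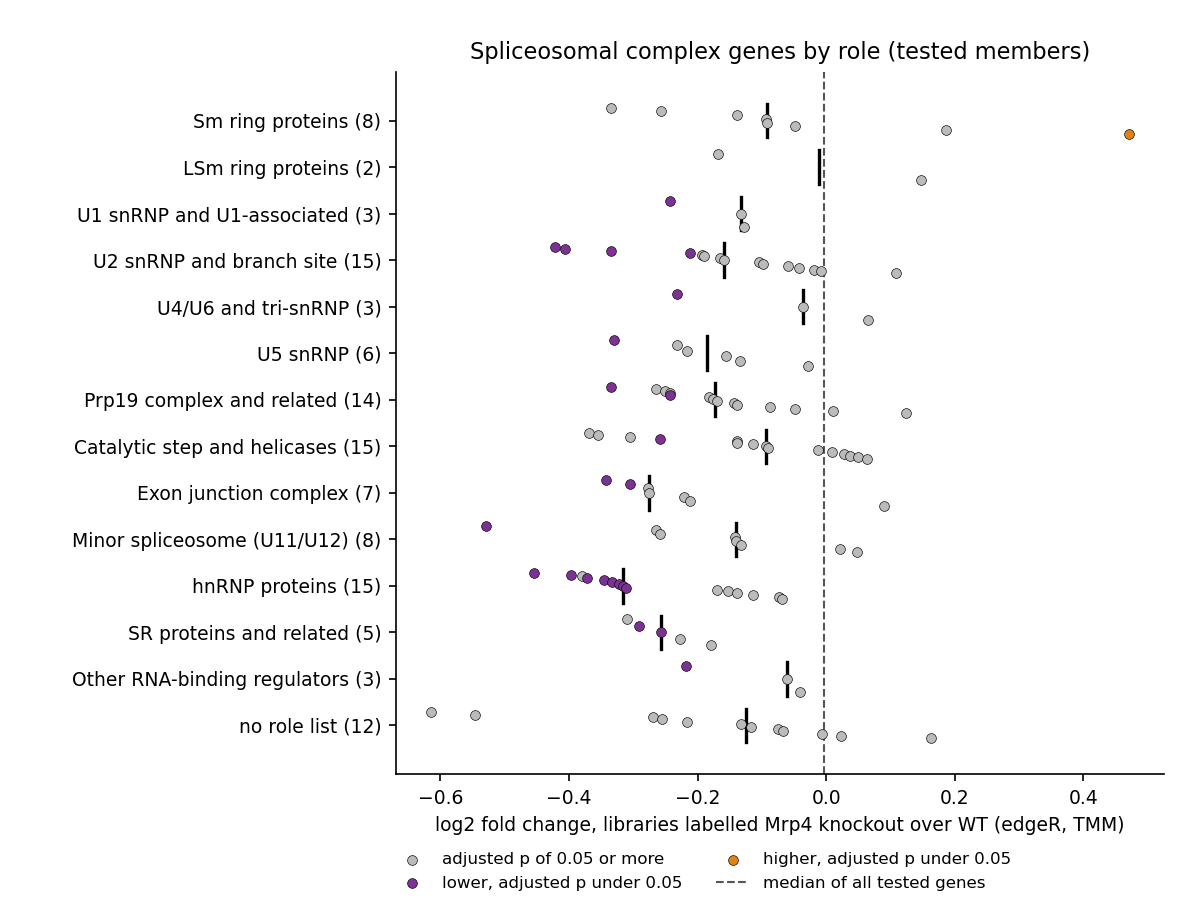
Fitted log2 fold change (horizontal axis, KO-labelled over WT) of the 116 tested members in rows by role, with the number of tested members in brackets. Each point is a gene (shifted vertically only to separate points), black bars are row medians, and the dashed line is the median of all tested genes. The hnRNP row has its median at -0.32, the leftmost of the rows. Next to it are the exon junction complex row and the row of SR proteins and related genes, which includes Ptbp2.

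Among the members that fell, 7 kept the call when any single library was left out: Rnpc3, Sf3a1, Prpf8, Hnrnpr, Hnrnpu, Hnrnpm and Tra2b. The other 17 lost it without at least 1 library, although the fitted fold change of all 24 stayed below 0 in every such fit. The count of members that fell was 18, 14, 10 and 10 without replicate 1, 2, 4 and 5 of the KO-labelled group, where 3.76%, 4.48%, 3.66% and 3.85% of all tested genes fell. It was 12, 34, 12 and 8 without WT replicate 1, 2, 3 and 4, where 4%, 11.8%, 4.17% and 3.13% of all tested genes fell. With scaling by library size alone the call was lost by 10 of the 24, namely U2af1, U2af2, Dhx15, Rbm8a, Zcchc8, Srsf1, Rbm25, Plrg1, Prpf4b and Rbm5.

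**Figure D2:**
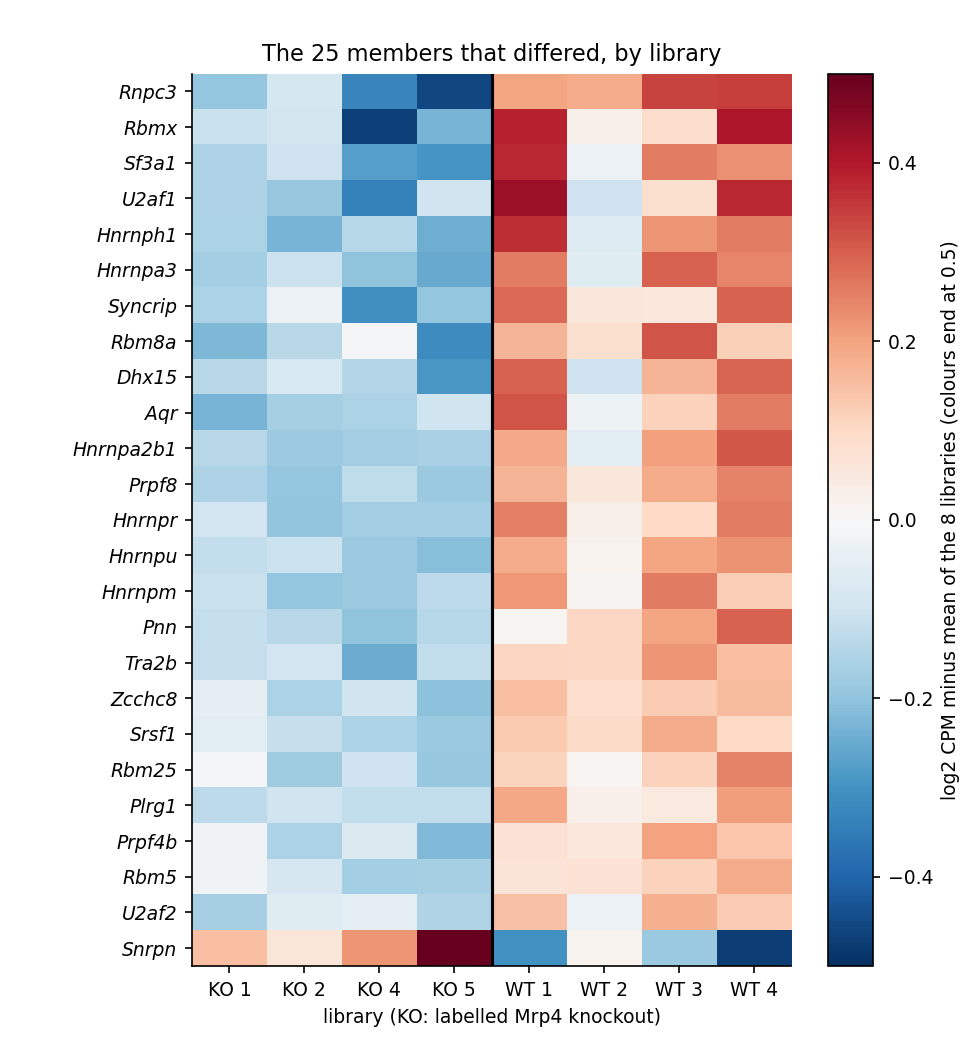
Deviation of log2 CPM (counts scaled to library size with TMM, prior count 2) from the mean of the 8 libraries for the 25 members that rose or fell, with libraries across (KO-labelled left, WT right) and colours ending at 0.5. The 24 genes that fell are mostly blue on the left and red on the right, paler in WT 2, and Snrpn has the opposite colours.

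The promoter windows of these genes are shown because their falls did not depend on any single library. The windows were searched for 7 motifs, chosen with the calls known, among them TGACGT, the core of the cyclic AMP response element. It was found in the windows of Rnpc3, Prpf8, Hnrnpm and Tra2b and not in those of Sf3a1 and Hnrnpu, while Hnrnpr had 2 starts in the table and is not shown. Whether the motif has a part in the falls was not tested. The windows run from 250 bases before to 50 after the RefSeq start in build GRCm38.p6, 5′ to 3′ on the gene's strand, and capitals mark TGACGT or its reverse complement ACGTCA.
Rnpc3, chr3:113630100-113630399, minus strand: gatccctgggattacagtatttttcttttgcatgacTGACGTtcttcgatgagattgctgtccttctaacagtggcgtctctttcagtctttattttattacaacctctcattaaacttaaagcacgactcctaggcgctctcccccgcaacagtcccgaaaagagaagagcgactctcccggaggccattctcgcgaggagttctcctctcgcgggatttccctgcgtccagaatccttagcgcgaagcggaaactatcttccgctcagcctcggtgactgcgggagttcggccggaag
Sf3a1, chr11:4160104-4160403, plus strand: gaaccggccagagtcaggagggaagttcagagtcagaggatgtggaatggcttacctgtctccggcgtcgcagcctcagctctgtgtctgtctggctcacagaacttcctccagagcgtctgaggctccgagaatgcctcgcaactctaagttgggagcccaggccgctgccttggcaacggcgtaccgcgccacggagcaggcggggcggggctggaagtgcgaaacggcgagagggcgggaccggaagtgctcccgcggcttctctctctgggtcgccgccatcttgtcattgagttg
Prpf8, chr11:75486527-75486826, plus strand: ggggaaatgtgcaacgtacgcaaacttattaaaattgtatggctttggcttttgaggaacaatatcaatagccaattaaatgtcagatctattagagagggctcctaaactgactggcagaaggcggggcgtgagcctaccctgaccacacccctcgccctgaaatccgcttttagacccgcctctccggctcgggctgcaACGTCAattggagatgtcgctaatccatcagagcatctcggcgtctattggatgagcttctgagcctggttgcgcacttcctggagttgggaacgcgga
Hnrnpu, chr1:178337766-178338065, minus strand: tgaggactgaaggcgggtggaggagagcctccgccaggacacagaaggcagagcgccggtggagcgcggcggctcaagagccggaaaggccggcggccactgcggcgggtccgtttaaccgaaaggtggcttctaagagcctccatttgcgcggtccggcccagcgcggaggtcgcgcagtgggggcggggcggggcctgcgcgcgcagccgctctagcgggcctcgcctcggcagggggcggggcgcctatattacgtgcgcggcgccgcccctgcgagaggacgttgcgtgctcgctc
Hnrnpm, chr17:33685409-33685708, minus strand: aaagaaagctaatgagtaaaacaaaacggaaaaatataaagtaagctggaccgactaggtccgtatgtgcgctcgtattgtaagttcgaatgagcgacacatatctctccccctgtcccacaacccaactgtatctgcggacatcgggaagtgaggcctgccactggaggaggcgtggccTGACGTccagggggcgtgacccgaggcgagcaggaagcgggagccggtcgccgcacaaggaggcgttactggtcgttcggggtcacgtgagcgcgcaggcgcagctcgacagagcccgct
Tra2b, chr16:22265956-22266255, minus strand: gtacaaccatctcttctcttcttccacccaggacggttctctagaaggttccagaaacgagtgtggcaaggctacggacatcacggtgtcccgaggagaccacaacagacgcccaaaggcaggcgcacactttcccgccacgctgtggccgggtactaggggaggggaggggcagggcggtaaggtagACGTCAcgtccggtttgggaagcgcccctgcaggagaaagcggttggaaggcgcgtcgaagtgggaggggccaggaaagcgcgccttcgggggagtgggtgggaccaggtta

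In the 4 windows that held TGACGT no other searched motif overlapped the marked letters, and in Prpf8 an ATTGG, the reverse complement of the NF-Y motif, follows them directly. Among the genes that fell, 22 of 24 had a window in the table and 9 of the 22 (40.9%) held TGACGT on either strand. The share was 24.6% of the 69 tested members with a window that did not pass the test, 12.4% of all tested genes with one, and 8.37% of all 27025 genes of the table. In windows with at least 20 CpG dinucleotides the shares were 47.1%, 25% and 14.3% for the genes that fell, the other tested members and all tested genes. Of the other 6 motifs searched on both strands, the ETS motif CCGGAAG was in 22.7% of the genes that fell, 42.0% of the other tested members and 18.5% of all tested genes. The NF-Y motif CCAAT was in 59.1%, 47.8% and 42.5%, the GC box GGGCGG in 59.1%, 62.3% and 66.2%, and TATAAA in 13.6%, 13.0% and 9.3% of the same sets. NRF1 (GCATGCGC) and YY1 (AAGATGGC) each matched 1 of the 22 (4.55%). NRF1 was in 8.70% of the other tested members and 5.50% of all tested genes, and YY1 in 1.45% and 4.87%. These matches are descriptions of letters in a window, not of factor binding.

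Sm and LSm proteins, which form the rings around the small nuclear RNAs, held no member that fell. These were few genes, the 8 Sm and 2 LSm genes that carried the term, and 8.05% of all tested genes fell. Of the 8 tested Sm genes Snrpn rose and 7 did not pass the edgeR test (1 of them lower at an unadjusted p under 0.05, and 0 by DESeq2 or limma-voom), and 6 had a fold change below 0 (5 with scaling by library size alone). Snrpb, which encodes the widely expressed SmB/B′, had 58, 60.4, 63.6 and 54.2 FPKM in the KO-labelled libraries, against 59.8, 56.1, 55.4 and 62.7 FPKM in the WT libraries. The values of Snrpb overlapped, with a log2 fold change of -0.05 ± 0.07 (SE; edgeR adjusted p = 0.669), and its sign turned positive with library size alone. Snrpf (SmF) and Snrpd1 (SmD1) averaged 10.7 FPKM in KO-labelled and 12.9 FPKM in WT libraries and 13.1 FPKM in KO-labelled and 15.03 FPKM in WT libraries, with fold changes of -0.33 (edgeR adjusted p = 0.134) and -0.26 (edgeR adjusted p = 0.188) on the log2 scale. Of the LSm genes, neither of which passed the edgeR test (0 of 2 at an unadjusted p under 0.05 and 0 by DESeq2 or limma-voom), Lsm2 had a fold change of -0.17 (edgeR adjusted p = 0.285) and Lsm3 one of 0.15 (edgeR adjusted p = 0.309).

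Snrpn encodes SmN, a paralogue of SmB/B′ known for its level in brain and heart, and it is an imprinted gene. Its level was 14, 13.04, 14.4 and 17.3 FPKM in the KO-labelled libraries, against 9.49, 12.2, 10.6 and 8.36 FPKM in the WT libraries. All KO-labelled libraries lay above all WT libraries, replicate 5 of the KO-labelled group being the highest, and the log2 fold change of 0.47 ± 0.13 (SE; edgeR adjusted p = 0.032) corresponds to a level 1.39 times that of WT. The call was lost without replicate 1, 4 or 5 of the KO-labelled group and without WT replicate 1, 3 or 4, with fold changes of 0.38 to 0.56 on the log2 scale across the leave-outs. SmN and SmB/B′ take the same place in the ring, and the share of Snrpn in the summed FPKM of both genes was 19.98 ± 2.93% in KO-labelled and 14.8 ± 2.66% in WT libraries (SD, n = 4 each; two-sided exact permutation p = 0.0571, 0.333 adjusted over 7 such shares). Replicate 2 of the KO-labelled group, at 17.8%, and WT replicate 2, at 17.9%, overlapped. The summed FPKM of both genes was higher without overlap, at 73.7 ± 2.96 in KO-labelled and 68.7 ± 2.14 in WT libraries (SD, n = 4 each, two-sided exact permutation p = 0.0286).

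Snurf, an upstream reading frame carried on transcripts of the same gene on chromosome 7, moved with Snrpn and more strongly. It had 1.98, 1.90, 2.39 and 2.29 FPKM in the KO-labelled libraries, against 0.690, 1.27, 1.10 and 0.750 FPKM in the WT libraries, without overlap of the groups. The log2 fold change of 1.10 ± 0.22 (SE; edgeR adjusted p = 0.0121) held without any single library and under each of the other scalings, filters and tools. Its expected counts were low, 19.3 to 67.5 per library, and not whole, so part of its reads was assigned by estimate between Snurf and Snrpn. D7Ertd715e, listed as Snhg14 in the GRCm38.p6 annotation and overlapping Snrpn there, had a fold change of 0.17 ± 0.27 (SE; edgeR adjusted p = 0.68).

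**Figure D3:**
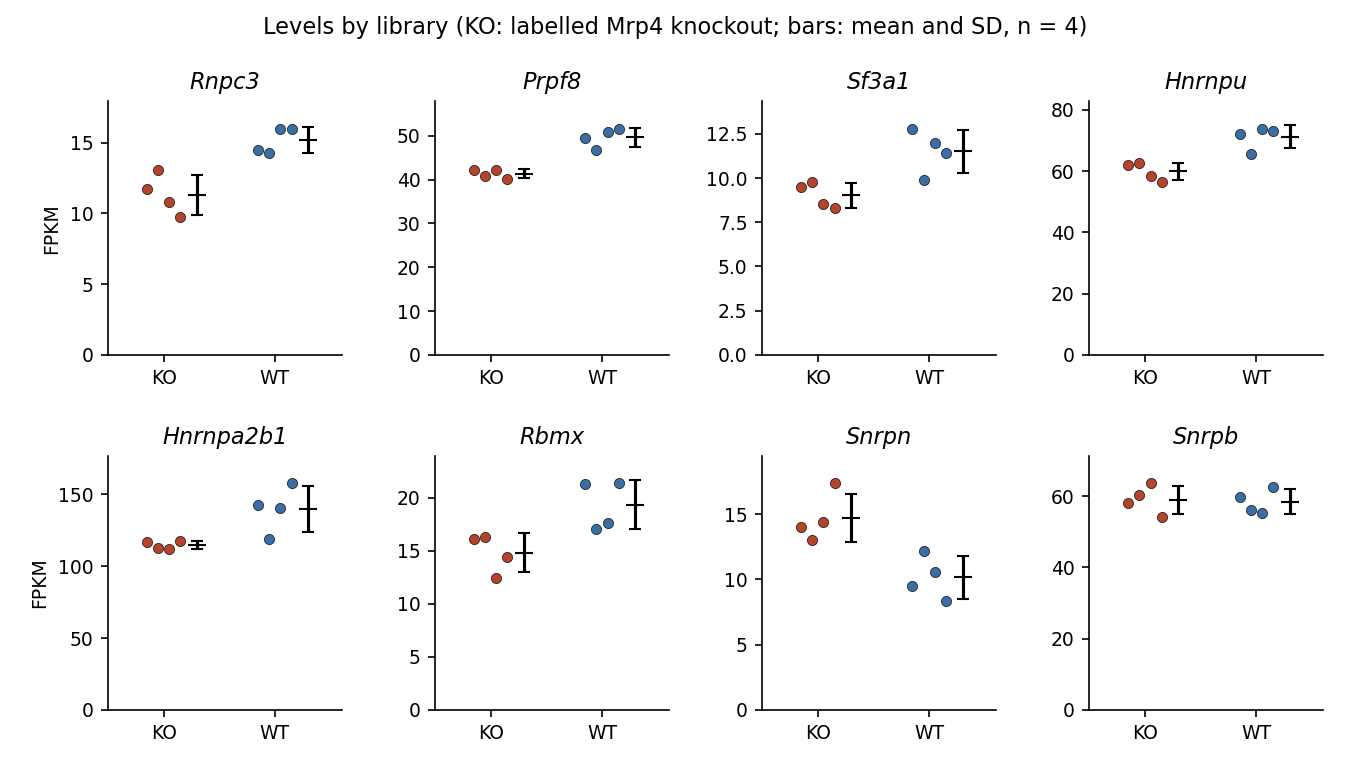
Level in FPKM (vertical axes, from 0) of 8 members in each library, KO-labelled left and WT right, with the mean and SD of 4 libraries beside the points. Snrpn lies higher in the KO-labelled libraries, Snrpb overlaps, and Rnpc3, Prpf8, Sf3a1, Hnrnpu, Hnrnpa2b1 and Rbmx lie lower without overlap.

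At the 5′ splice site, 1 of 3 tested U1 members fell (33.3%, against 8.05% of all tested genes). Rbm25, a splicing regulator that associates with the U1 particle, had 19.4, 17.2, 17.9 and 16.6 FPKM in the KO-labelled libraries, against 19.8, 18.9, 20.2 and 21.6 FPKM in the WT libraries. Only KO-labelled replicate 1 reached into the WT range, and the log2 fold change of -0.24 ± 0.07 (SE; edgeR adjusted p = 0.0411) lost its call without 6 of the single libraries (every one but replicate 1 of the KO-labelled group and WT replicate 2), with values of -0.20 to -0.28 over all leave-outs. Snrnp70, the core U1-70K protein, averaged 55.2 ± 3.89 FPKM in KO-labelled and 57.9 ± 3.02 FPKM in WT libraries (SD, n = 4 each), with a fold change of -0.13 (edgeR adjusted p = 0.183). The helicase Ddx5 was the most abundant U1-associated member, at 197 ± 13.6 FPKM in KO-labelled and 205 ± 5.60 FPKM in WT libraries, with a fold change of -0.13 (edgeR adjusted p = 0.263).

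Of the 15 tested members grouped as acting with the U2 particle at the branch site and the 3′ splice site, 4 fell (26.7%, against 8.05% of all tested genes). None of the others in the group passed the test. Sf3a1, a subunit of the SF3A complex that joins the U2 particle, had 9.47, 9.75, 8.54 and 8.32 FPKM in the KO-labelled libraries, against 12.8, 9.91, 11.98 and 11.4 FPKM in the WT libraries. WT replicate 2 was the lowest of the WT libraries and lay just above the highest KO-labelled one, with a log2 fold change of -0.42 ± 0.09 (SE; edgeR adjusted p = 0.0158). Both subunits of U2AF, which binds the polypyrimidine tract and the AG of the 3′ splice site, fell. U2af1 had 20.2, 19.6, 17.5 and 20.3 FPKM in the KO-labelled libraries, against 28.5, 20.2, 22.7 and 27.1 FPKM in the WT libraries, and WT replicate 2 lay within the KO-labelled range. Its log2 fold change of -0.41 ± 0.12 (SE; edgeR adjusted p = 0.0485) held without WT replicate 2 and was lost without any other library (-0.33 to -0.50). U2af2 had 49.3, 52.8, 52.8 and 48.4 FPKM in the KO-labelled libraries, against 57.4, 52.1, 59.7 and 55.9 FPKM in the WT libraries. Here too the FPKM ranges overlapped through WT replicate 2, and the log2 fold change of -0.21 ± 0.07 (SE; edgeR adjusted p = 0.04998) again held only when WT replicate 2 was the library left out (-0.19 to -0.26). It was also lost under 7 of the other scalings, filters and tools. Dhx15, a helicase that takes spliceosomes apart and is held in this group, had 30.3, 31.4, 29.7 and 26.4 FPKM in the KO-labelled libraries, against 38.4, 29.8, 35.8 and 37.8 FPKM in the WT libraries, and its log2 fold change of -0.33 ± 0.09 (SE; edgeR adjusted p = 0.0366) kept its call only without WT replicate 2 (-0.29 to -0.42).

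Of the SF3A and SF3B subunits Sf3a1 alone passed the test, and no difference between subunits was tested. The other 8 in this role group had log2 fold changes of -0.19 to -0.01. Of them 2 were lower at an unadjusted p under 0.05 and 3 positive with scaling by library size alone. Sf3b6, listed in the data as 0610009D07Rik, was left outside the role groups. Its log2 fold change was -0.07 (edgeR adjusted p = 0.597), and 0.003 with library size alone. Sf3b1, the subunit that clamps the branch site and a frequent target of splicing factor mutations in blood cancers, had 37.6, 37.7, 35.5 and 35.5 FPKM in the KO-labelled libraries, against 35.03, 35.6, 37.8 and 35.5 FPKM in the WT libraries. The groups overlapped, with a log2 fold change of -0.04 ± 0.06 (SE; edgeR adjusted p = 0.639) that turned positive with scaling by library size alone. Snrpb2, the U2-B″ protein, was 1 of 5 members whose FPKM ranges lay higher in the KO-labelled group without overlap (16.4% of all tested genes did), at 12.5 ± 0.495 FPKM in KO-labelled and 11.1 ± 0.427 FPKM in WT libraries (SD, n = 4 each), with a fold change of 0.11 (edgeR adjusted p = 0.366). The others were Snrpn, Snrpe, Prpf31 and Dhx8, of which Snrpn alone passed the test, and all 5 were named for this count after their values were seen. Snrpe, Prpf31 and Dhx8 had log2 fold changes of 0.19 (edgeR adjusted p = 0.206), 0.06 (edgeR adjusted p = 0.571) and 0.04 (edgeR adjusted p = 0.691). U2af1l4, a paralogue of U2af1, made up 52.2 ± 1.48% of the summed FPKM of both genes in KO-labelled and 48.2 ± 4.39% in WT libraries (SD, n = 4 each; exact permutation p = 0.143, 0.333 adjusted), and its own fold change was -0.16 (edgeR adjusted p = 0.19).

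In the tri-snRNP, Prpf8 fell, the large U5 protein at the catalytic centre. Prpf8 had 42.2, 40.95, 42.2 and 40.1 FPKM in the KO-labelled libraries, against 49.4, 46.8, 50.8 and 51.7 FPKM in the WT libraries. The KO-labelled libraries lay within a narrow band below the lowest WT library, with a log2 fold change of -0.33 ± 0.07 (SE; edgeR adjusted p = 0.0135), a fall of 20.5% that held without any single library and under each of the other scalings, filters and tools. It was the 1 fall among 6 tested U5 members (16.7%, against 8.05% of all tested genes), and all 6 had a fold change below 0 (5 with library size alone). Snrnp200, the helicase that unwinds U4 from U6, had 24.8, 22.9, 24.5 and 22.1 FPKM in the KO-labelled libraries, against 24.3, 24.1, 27.9 and 28.2 FPKM in the WT libraries, with a log2 fold change of -0.22 ± 0.08 (SE; edgeR adjusted p = 0.0805). Eftud2, the U5 GTPase, averaged 17.5 ± 1.01 FPKM in KO-labelled and 18.7 ± 0.745 FPKM in WT libraries (SD, n = 4 each), with a fold change of -0.16 (edgeR adjusted p = 0.119). Of the 3 tested members grouped with U4/U6 and the tri-snRNP 1 fell (33.3%, against 8.05% of all tested genes). This was Prpf4b, a kinase of tri-snRNP proteins, with 16.9, 15.2, 15.96 and 14.2 FPKM in the KO-labelled libraries, against 16.8, 16.9, 18.7 and 17.4 FPKM in the WT libraries. KO-labelled replicate 1 lay within the WT range, and its log2 fold change of -0.23 ± 0.07 (SE; edgeR adjusted p = 0.0387) kept its call only without that library or without WT replicate 2 (-0.20 to -0.26). Prpf31, which holds the U4/U6 particle to U5, averaged 6.91 ± 0.327 FPKM in KO-labelled and 6.31 ± 0.198 FPKM in WT libraries (SD, n = 4 each).

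Of 14 tested members of the Prp19 complex and its partners, 2 fell (14.3%, against 8.05% of all tested genes) and 12 had a fold change below 0 (11 with library size alone). Aqr, an intron-binding helicase, had 10.7, 11.1, 11.02 and 11.3 FPKM in the KO-labelled libraries, against 14.6, 11.8, 12.9 and 13.8 FPKM in the WT libraries. The KO-labelled values spanned less than 1 FPKM and lay below all WT values, with a log2 fold change of -0.33 ± 0.08 (SE; edgeR adjusted p = 0.0229) that lost its call without replicate 1, 2 or 4 of the KO-labelled group or WT replicate 1 or 4 (-0.29 to -0.40). Plrg1, a core subunit, had 13.6, 13.8, 13.4 and 13.2 FPKM in the KO-labelled libraries, against 15.9, 14.6, 14.7 and 15.96 FPKM in the WT libraries. The groups did not overlap, yet the log2 fold change of -0.24 ± 0.07 (SE; edgeR adjusted p = 0.0383) kept its call only without WT replicate 2 (-0.21 to -0.28). Prpf19, the ubiquitin ligase that names the complex, had 12.4, 13.4, 13 and 12.1 FPKM in the KO-labelled libraries, against 17.6, 13.2, 13.4 and 13.6 FPKM in the WT libraries. WT replicate 1 alone stood high, and the log2 fold change of -0.25 ± 0.10 (SE; edgeR adjusted p = 0.102) did not pass. Cdc5l, its DNA-binding-like core partner, had a fold change of -0.09 (edgeR adjusted p = 0.358) on the log2 scale, and the cyclophilin Ppie one of -0.26 (edgeR adjusted p = 0.0667).

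Among 15 tested factors of the catalytic steps 1 fell (6.67%, against 8.05% of all tested genes), and the median fold change was -0.09. That gene, Zcchc8, is better known as the zinc knuckle protein of the complex that hands nuclear RNA to the exosome. It had 6.33, 5.83, 6.00 and 5.50 FPKM in the KO-labelled libraries, against 6.81, 6.66, 6.81 and 6.77 FPKM in the WT libraries. WT values were almost equal and above all KO-labelled values, with a log2 fold change of -0.26 ± 0.06 (SE; edgeR adjusted p = 0.0249) that kept its call only without replicate 1 of the KO-labelled group or WT replicate 2 (-0.23 to -0.28). Cdc40, a factor of the second catalytic step, averaged 8.95 ± 1.28 FPKM in KO-labelled and 11.03 ± 1.36 FPKM in WT libraries (SD, n = 4 each), with a larger fold change that did not pass (-0.37 ± 0.12 SE, edgeR adjusted p = 0.0604). Wdr83 had 7.66, 8.27, 8.33 and 8.30 FPKM in the KO-labelled libraries, against 10.9, 8.63, 9.43 and 9.60 FPKM in the WT libraries, without overlap, and a fold change of -0.30 ± 0.10 (SE; edgeR adjusted p = 0.0678).

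Of 7 tested exon junction complex members 2 fell (28.6%, against 8.05% of all tested genes), and 6 had a fold change below 0 with either scaling. Rbm8a (Y14), a core subunit, had 9.62, 10.2, 11.02 and 8.77 FPKM in the KO-labelled libraries, against 11.9, 11.4, 13.3 and 11.3 FPKM in the WT libraries. Pnn (pinin), a peripheral component, had 18.5, 18.1, 17.2 and 17.6 FPKM in the KO-labelled libraries, against 18.9, 20.7, 21.9 and 22.8 FPKM in the WT libraries. Neither gene had overlapping groups, with a log2 fold change of -0.34 ± 0.09 (SE; edgeR adjusted p = 0.0269) for Rbm8a and a log2 fold change of -0.30 ± 0.07 (SE; edgeR adjusted p = 0.0202) for Pnn. The call of Rbm8a was kept only without replicate 4 of the KO-labelled group or WT replicate 2 (-0.29 to -0.40), and that of Pnn was lost without replicate 4 of the KO-labelled group or WT replicate 3 or 4 (-0.26 to -0.35). Magoh, the partner of Y14, had a fold change of -0.21 (edgeR adjusted p = 0.164), and its near-identical copy Magohb one of 0.09 (edgeR adjusted p = 0.755) from 34 to 53 counts per library. Magohb made up 15.1 ± 3.04% of their summed FPKM in KO-labelled and 12.6 ± 1.7% in WT libraries (SD, n = 4 each; exact permutation p = 0.2, 0.35 adjusted). The RNA-clamping helicase Eif4a3 averaged 32.03 ± 0.712 FPKM in KO-labelled and 35.7 ± 2.95 FPKM in WT libraries (SD, n = 4 each), with a fold change of -0.22 (edgeR adjusted p = 0.0667). Srrm1, a coactivator that binds the complex, had a fold change of -0.28 (edgeR adjusted p = 0.07).

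The largest fall of all members was in the minor spliceosome. Rnpc3, the protein that bridges the U11 and U12 particles, had 11.7, 13.1, 10.8 and 9.72 FPKM in the KO-labelled libraries, against 14.5, 14.3, 16 and 15.96 FPKM in the WT libraries. All KO-labelled libraries lay below all WT libraries, replicate 5 of the KO-labelled group being the lowest. Its log2 fold change of -0.53 ± 0.09 (SE; edgeR adjusted p = 0.0056) is a fall of 30.7%, it held without any single library (-0.47 to -0.59), and it was the only member with an adjusted p under 0.01, where 1.07% of all tested genes fell and 2.79% rose. The other 7 tested genes of the minor spliceosome did not pass, so that 12.5% of the group fell, against 8.05% of all tested genes. Zrsr1 and Pdcd7, further proteins of these particles, had fold changes of -0.26 (edgeR adjusted p = 0.0923) and -0.26 (edgeR adjusted p = 0.162) on the log2 scale. Zcrb1, the most abundant of them, averaged 26.8 ± 2.73 FPKM in KO-labelled and 28.2 ± 0.772 FPKM in WT libraries (SD, n = 4 each), with a fold change of -0.13 (edgeR adjusted p = 0.305).

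HnRNP proteins, which coat nascent transcripts and often hold back splice sites, held 8 of the 24 falls. Of 15 tested hnRNP genes 8 fell (53.3%, against 8.05% of all tested genes), and the median was -0.32. All 15 had a fold change below 0 (14 with library size alone, where Hnrnph2 turned positive, while Raly did so in limma fits of FPKM). The count that fell was 8 with scaling by library size alone too, where 4.77% of all tested genes fell. Hnrnpu, also known as scaffold attachment factor A, had 62.04, 62.5, 58.5 and 56.5 FPKM in the KO-labelled libraries, against 72, 65.6, 73.9 and 73.1 FPKM in the WT libraries. Hnrnpm had 41.1, 38.7, 38.4 and 39.2 FPKM in the KO-labelled libraries, against 48.4, 43.03, 50.7 and 44.8 FPKM in the WT libraries. Hnrnpr had 6.13, 5.71, 5.72 and 5.65 FPKM in the KO-labelled libraries, against 7.32, 6.39, 6.67 and 7.24 FPKM in the WT libraries. In these 3 genes the highest KO-labelled library lay below the lowest WT library, which was replicate 2 each time. Their log2 fold changes were -0.32 ± 0.07 (SE; edgeR adjusted p = 0.0163) for Hnrnpu, -0.31 ± 0.07 (SE; edgeR adjusted p = 0.0157) for Hnrnpm and -0.32 ± 0.07 (SE; edgeR adjusted p = 0.0159) for Hnrnpr. These calls held without any single library, and that of Hnrnpr was lost in limma fits of FPKM.

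Hnrnpa2b1, a nuclear reader of RNA sequence and methylation, was the most abundant member that fell. It had 117, 113, 112 and 117 FPKM in the KO-labelled libraries, against 142, 119, 140.5 and 158 FPKM in the WT libraries. KO-labelled values were close together while WT values were spread, with WT replicate 2 close above the KO-labelled range, and the log2 fold change of -0.33 ± 0.08 (SE; edgeR adjusted p = 0.0269) kept its call only without WT replicate 2 (-0.28 to -0.41). Hnrnph1, which binds G-rich RNA, had 49.96, 47.1, 49.7 and 45.5 FPKM in the KO-labelled libraries, against 67.4, 51.1, 61.9 and 61.6 FPKM in the WT libraries. Its groups did not overlap, and the log2 fold change of -0.40 ± 0.09 (SE; edgeR adjusted p = 0.0186) lost its call only without WT replicate 4 (-0.34 to -0.48). Syncrip (hnRNP Q) had 24.8, 27.6, 22.2 and 25 FPKM in the KO-labelled libraries, against 32.1, 27.6, 28.9 and 32.9 FPKM in the WT libraries. The 2 groups nearly met at replicate 2 of each, and the log2 fold change of -0.35 ± 0.09 (SE; edgeR adjusted p = 0.0252) lost its call without replicate 1, 4 or 5 of the KO-labelled group or WT replicate 1 or 4 (-0.30 to -0.39). Hnrnpk, the most abundant hnRNP gene, averaged 145 ± 7.10 FPKM in KO-labelled and 156 ± 8.34 FPKM in WT libraries (SD, n = 4 each), with a fold change of -0.17 (edgeR adjusted p = 0.129). Hnrnpc and its paralogue Raly had fold changes of -0.14 (edgeR adjusted p = 0.255) and -0.07 (edgeR adjusted p = 0.393), and Raly made up 52.6 ± 2.03% of their summed FPKM in KO-labelled and 51.4 ± 1.75% in WT libraries (SD, n = 4 each; exact permutation p = 0.429, 0.5 adjusted).

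For 3 of the hnRNP genes with a copy in the genome, which can share reads, the summed level is given too. Expected counts of Hnrnpa3 and Hnrnpa1 were not all whole, while those of Rbmx and Rbmxl1 summed to whole numbers. Hnrnpc, not among the 3, also had counts that were not whole. Hnrnpa3 had 48.6, 49.4, 47.2 and 44.7 FPKM in the KO-labelled libraries, against 59.03, 49.9, 63.6 and 61.5 FPKM in the WT libraries, without overlap, and a log2 fold change of -0.37 ± 0.09 (SE; edgeR adjusted p = 0.0214) that lost its call without replicate 4 or 5 of the KO-labelled group or WT replicate 3 or 4 (-0.33 to -0.45). With its pseudogene Gm6793, also a member, the sum was 50.2 ± 1.92 FPKM in KO-labelled and 62.4 ± 6.24 FPKM in WT libraries (SD, n = 4 each; exact permutation p = 0.0286, the smallest that 4 against 4 allow). Rbmx, the X-linked hnRNP G, had 16.1, 16.3, 12.4 and 14.4 FPKM in the KO-labelled libraries, against 21.3, 17.04, 17.6 and 21.3 FPKM in the WT libraries. The highest KO-labelled value was below the lowest WT value, and its log2 fold change of -0.45 ± 0.11 (SE; edgeR adjusted p = 0.0269) lost its call without replicate 4 or 5 of the KO-labelled group or WT replicate 1 or 4 (-0.38 to -0.52). Its intronless copy Rbmxl1 had a fold change of -0.15 (edgeR adjusted p = 0.201), and the sum of both was 27.7 ± 2.17 FPKM in KO-labelled and 33.1 ± 1.99 FPKM in WT libraries (SD, n = 4 each; exact permutation p = 0.0286). Rbmxl1 made up 46.7 ± 2.81% of that sum in KO-labelled and 41.6 ± 4.33% in WT libraries (exact permutation p = 0.143, 0.333 adjusted). Hnrnpa1 did not pass (-0.38 ± 0.14 SE, edgeR adjusted p = 0.0833), and with its pseudogene Gm10052 it summed to 48.1 ± 1.81 FPKM in KO-labelled and 61.7 ± 9.64 FPKM in WT libraries (SD, n = 4 each; exact permutation p = 0.0571). Gm6793 and Gm10052 had log2 fold changes of -0.61 (edgeR adjusted p = 0.0813) and -0.55 (edgeR adjusted p = 0.121).

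SR proteins bind exonic enhancers and promote splicing. The group of 5 tested members also held Ptbp2, which is not an SR protein and had a fold change of -0.18 (edgeR adjusted p = 0.2). Of these 5 members 2 fell (40%, against 8.05% of all tested genes), and all 5 had a fold change below 0 with either scaling. Tra2b had 37.2, 37.5, 33.3 and 35.8 FPKM in the KO-labelled libraries, against 40.6, 41.6, 44.8 and 41.3 FPKM in the WT libraries. Srsf1, the founding SR protein, had 29.1, 27.8, 26.6 and 25.8 FPKM in the KO-labelled libraries, against 30.9, 30.9, 32.8 and 29.8 FPKM in the WT libraries. Neither gene overlapped between groups, with a log2 fold change of -0.29 ± 0.06 (SE; edgeR adjusted p = 0.0137) for Tra2b, which held without any single library, and a log2 fold change of -0.26 ± 0.06 (SE; edgeR adjusted p = 0.0194) for Srsf1. The call of Srsf1 was lost without replicate 4 or 5 of the KO-labelled group or WT replicate 3 (-0.23 to -0.28), and with scaling by library size alone. Srsf2, the most abundant of the group, averaged 70.6 ± 7.35 FPKM in KO-labelled and 79.1 ± 5.61 FPKM in WT libraries (SD, n = 4 each), with a fold change of -0.23 (edgeR adjusted p = 0.078). Srek1 had 10.3, 10.6, 9.04 and 9.13 FPKM in the KO-labelled libraries, against 11.5, 10.7, 10.7 and 13.4 FPKM in the WT libraries, without overlap, and missed the threshold (-0.31 ± 0.10 SE, edgeR adjusted p = 0.0509).

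Rbm5, a regulator of exon choice in apoptosis genes, fell, as 1 of 3 further RNA-binding members tested (33.3%, against 8.05% of all tested genes). Its level was 27.3, 25.9, 24.1 and 23.9 FPKM in the KO-labelled libraries, against 27.01, 27.9, 28.5 and 29.04 FPKM in the WT libraries. KO-labelled replicate 1 lay within the WT range, and the log2 fold change of -0.22 ± 0.06 (SE; edgeR adjusted p = 0.0365) kept its call only without that library or WT replicate 2 (-0.19 to -0.25). The most abundant members of all, the poly(A)-binding protein gene Pabpc1 and the cold shock gene Ybx1, averaged 233 ± 19.1 FPKM in KO-labelled and 232 ± 16.4 FPKM in WT libraries and 229 ± 11.5 FPKM in KO-labelled and 225 ± 3.98 FPKM in WT libraries (SD, n = 4 each). Their fold changes were -0.06 (edgeR adjusted p = 0.648) and -0.04 (edgeR adjusted p = 0.705) with TMM and turned positive with library size alone. None of the 12 tested members in no role group passed the edgeR test (3 were lower at an unadjusted p under 0.05, and 0 passed by DESeq2 or limma-voom). The 10 members that were not tested, of which Rbmxl2 had the most counts (39 over all libraries), are mainly predicted gene copies.

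Lists of genes of neighbouring steps, without the members, held shares of falls on both sides of the 8.05% of all tested genes, of which 10.2% rose. Of 17 genes of SR proteins or related factors outside the term 5 fell (29.4%), none rose and 12 did not pass. Lowest in p were Srsf4 at -0.39 ± 0.08 (SE; edgeR adjusted p = 0.0129) and Scaf4 at -0.30 (edgeR adjusted p = 0.0215) on the log2 scale. The others that fell were Srsf11 at -0.25 (edgeR adjusted p = 0.0237), Bclaf1 at -0.31 (edgeR adjusted p = 0.0467) and Scaf8 at -0.25 (edgeR adjusted p = 0.0495). Of these 5, Scaf4, Bclaf1 and Scaf8 are related genes and not SR proteins themselves. Of 17 genes of mRNA export 4 fell (23.5%), the export adaptor Chtop (-0.30 ± 0.06 SE, edgeR adjusted p = 0.0142), the helicase Ddx39b (-0.26, edgeR adjusted p = 0.0212), the export receptor Nxf1 (-0.22, edgeR adjusted p = 0.0323) and the helicase Ddx19b (-0.55, edgeR adjusted p = 0.0489). Of 22 genes of snRNP assembly and import 3 fell (13.6%) and 1 rose (4.55%). Strap, which works with the SMN complex, had 22.5, 24.8, 23.5 and 22.6 FPKM in the KO-labelled libraries, against 31.5, 30.1, 34.5 and 27.98 FPKM in the WT libraries. Ncbp1, the large cap-binding subunit, had 13.7, 13.7, 13.6 and 13.8 FPKM in the KO-labelled libraries, against 20.2, 15.96, 16.97 and 16.7 FPKM in the WT libraries. Neither overlapped, and the falls of Strap (-0.47 ± 0.07 SE, edgeR adjusted p = 0.00338) and Ncbp1 (-0.42 ± 0.08 SE, edgeR adjusted p = 0.0116) held without any single library. The third fall was Prmt5, the arginine methyltransferase of Sm proteins (-0.21, edgeR adjusted p = 0.0426), and Gemin7, a subunit of the SMN complex, rose (0.30, edgeR adjusted p = 0.0241).

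Among 25 tested tissue-regulated splicing factors 3 fell (12%, against 8.05% of all tested genes) and 1 rose (4%, against 10.2%). Rbm47, a splicing and editing cofactor, had 11.4, 11.3, 10.6 and 9.93 FPKM in the KO-labelled libraries, against 18.7, 13.6, 15.7 and 18.3 FPKM in the WT libraries. No library overlapped, and its log2 fold change of -0.69 ± 0.11 (SE; edgeR adjusted p = 0.00402) held without any single library. Rbm4 and Ptbp1 also fell, with log2 fold changes of -0.29 (edgeR adjusted p = 0.0289) and -0.27 (edgeR adjusted p = 0.0482). Mbnl3, a muscleblind protein, rose at low levels, with 0.610, 0.600, 0.450 and 0.620 FPKM in the KO-labelled libraries, against 0.390, 0.340, 0.270 and 0.230 FPKM in the WT libraries and a log2 fold change of 0.82 ± 0.20 (SE; edgeR adjusted p = 0.0229). Of 21 cleavage and polyadenylation genes 2 fell (9.52%), Cpsf7 (-0.25, edgeR adjusted p = 0.0364) and Ppp1ca (-0.33, edgeR adjusted p = 0.0428), and of 16 genes of nonsense-mediated decay 1 fell (6.25%), Smg8 (-0.24, edgeR adjusted p = 0.0428). The shares of these 2 lists were near that of all tested genes. None of 11 kinases and phosphatase regulators of SR proteins passed the edgeR test (3 were lower at an unadjusted p under 0.05, 1 fell by DESeq2 and 0 by limma-voom), Clk1 having a fold change of -0.20 (edgeR adjusted p = 0.0749). The genes past the first pair of each of these lists were named for the count after their values were seen, and among the genes of these lists that changed Srsf4, Chtop, Strap, Ncbp1 and Rbm47 alone kept their call without any single library. With scaling by library size alone the falls numbered 2 of 17 SR and related genes outside the term, 1 of 17 export genes and 2 of 22 assembly genes. They numbered 1 of 25 tissue-regulated factors, 0 of 21 polyadenylation genes and 0 of 16 decay genes, beside 4.77% of all tested genes.

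Read by library, the median deviation of the 116 tested members from their own mean over the 8 libraries was -0.06, -0.07, -0.09 and -0.11 in the KO-labelled libraries, against 0.10, -0.02, 0.11 and 0.13 in the WT libraries on the log2 scale. All KO-labelled libraries were lower than every WT library, and WT replicate 2 stood apart from the other WT libraries. The median deviation of the hnRNP genes was -0.11, -0.09, -0.17 and -0.16 in the KO-labelled libraries, against 0.19, 0.01, 0.15 and 0.22 in the WT libraries. For the Sm genes the order was mixed, with -0.05, 0.01, -0.05 and -0.03 in the KO-labelled libraries, against 0.04, -0.09, 0.08 and 0.14 in the WT libraries. Without WT replicate 2, 34 members fell (11.8% of all tested genes did) and the median log2 fold change of members was -0.20. Log2 CPM did not overlap between groups for 35 lower members and 1 higher member, beside 11.3% and 12.5% of all tested genes, and FPKM did not for 20 lower members, beside 7.08%.

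**Figure D4:**
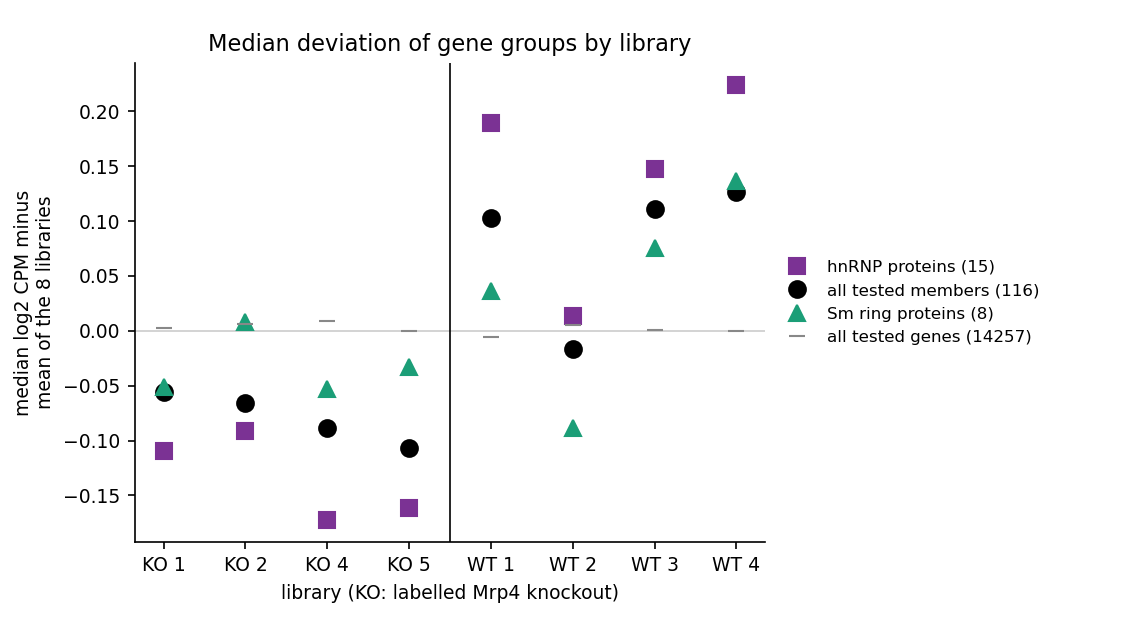
Median deviation of log2 CPM from each gene's mean over the 8 libraries (vertical axis) for hnRNP genes, all tested members, Sm genes and all tested genes, by library with KO-labelled left. Members lie at -0.06 to -0.11 in KO-labelled libraries and at 0.10 to 0.13 in WT 1, 3 and 4, with WT 2 at -0.02.

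Markers of the tissue and of other cells also differed between the groups. All 10 adipocyte markers were detected, with a summed level of 23168 to 27832 FPKM in KO-labelled and 28699 to 32741 FPKM in WT libraries, and 3 fell and 1 rose. All 10 liver markers rose, their sum being 714 to 1351 FPKM in KO-labelled and 38.01 to 93.9 FPKM in WT libraries. Macrophage markers rose in 5 of 7 tested genes (915 to 1459 FPKM in KO-labelled, 684 to 805 FPKM in WT, Adgre1 not listed), proliferation markers in 7 of 8 (11.5 to 20.2 FPKM and 4.63 to 7.99 FPKM) and endothelial markers in 4 of 6 (362 to 376 FPKM and 216 to 314 FPKM). Fibroblast markers rose in 3 and fell in 1 of 7 (1456 to 1631 FPKM in KO-labelled, 1518 to 1691 FPKM in WT), and lymphocyte markers rose in 1 of 6 tested (9.08 to 14.2 FPKM and 6.04 to 8.44 FPKM). Mesothelial markers fell in 1 of 5, at 51.02 to 139.6 FPKM in KO-labelled and 140.1 to 218 FPKM in WT libraries, with Muc16 not listed. The part of these differences in the spliceosome result was not tested.

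Abundance and length moved with the calls as well. Tested members had a median level of 15.02 FPKM and a median SE of 0.09, against 8.18 FPKM and 0.12 for all tested genes. Restricted to mean levels of 5 FPKM or more, 24 of 108 members fell (22.2%), against 10.9% of all tested genes at that level, and at 20 FPKM or more 13 of 45 (28.9%) against 15.8%. Outside the hnRNP group the share at 5 FPKM or more was 17.2% of 93 members, against the same 10.9%. At 20 FPKM or more it was 21.2% of 33 members, against the same 15.8%. Members that fell had a median transcript length of 3287 bases, against 1903 bases for tested members that did not pass. In the longest of 4 equal length classes, at 4205 bases or more, 10 of 18 members fell (55.6%), against 7.49% of all tested genes in that class, and in the shortest class 2 of 46 (4.35%) against 9.49%. The median log2 fold change of members was -0.25 in the longest and -0.13 in the shortest class, with median SEs of 0.07 and 0.10.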

How the data were processed

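Per the labels' protocols, Trizol RNA of epididymal fat was selected on poly-T beads and sequenced on a BGISEQ-500 in pairs of 100 bases. The submitters' processing notes name Bowtie2 and build mm9, while the quantifier, its strand setting and all versions were not given in the sources. The values the authors deposited are, per the file headers, expected counts, FPKM and transcript lengths per gene and library. Expected counts are estimates and need not be whole, there were no molecular identifiers, and overlapping or near-identical genes can share reads.

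The rounded counts went into edgeR 4.0.16 (R 4.3.3): filterByExpr by genotype (14257 genes kept), TMM factors, glmQLFit (robust) and glmQLFTest, two-sided, with genotype alone and Benjamini-Hochberg adjustment at 0.05. Standard errors (SE) are the log2 fold change over the root of its F value. Paralogue shares and sums of FPKM were compared by two-sided exact permutation tests in scipy 1.17.1, where 4 against 4 libraries allow no p below 0.0286. The test code was checked on simulated counts, where the planted changes were larger than those of the members that fell. All 126 members were found by gene number in the GRCm38.p6 RefSeq annotation, which supplied names, neighbours and promoter windows but no coordinates for the mm9 data.

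The members, the 13 role groups, the 7 lists of neighbouring genes and the 10 marker lists were chosen with earlier results of these data known. Named members are the up to 12 largest rises and falls that passed and averaged 1 FPKM or more in the higher group, the most abundant and the 3 of lowest p in each role group, a list of core members, paralogue pairs, and in each neighbouring list the 2 of lowest p. Other members that passed, and genes named for a small count, were added after their values were seen, as were Snurf, D7Ertd715e and the copies Gm6793, Gm10052 and Rbmxl1. Alternatives were DESeq2 1.42.0 and its size factors, library size alone, upper quartile factors, 2 filters, limma 3.58.1 (voom, and log2(FPKM + 1) and log2(FPKM + 0.1) with trend), a replicate block, the omission of each library, and thresholds of 0.01 and 0.1. The markers of testis and epididymis (0 tested, at most 0.71 FPKM in KO-labelled and 16.9 FPKM in WT libraries in sum) and of pancreas (1 of 1 tested rose, 11.3 to 20.2 FPKM and 6.65 to 8.58 FPKM) were examined for other tissue.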

Additional observations from a re-analysis of the deposited data

Results flagged for a closer look

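Of 174 groups of 4 libraries of the named genes, 9 held a library far from the other 3 by Dixon's criterion, while chance gives about 1 in 20. In the KO-labelled group these were Hnrnpr at 6.13 FPKM and Wdr83 at 7.66 FPKM in replicate 1, Lsm2 at 8.29 FPKM and Rbmxl1 at 13.77 FPKM in replicate 2, Mbnl3 at 0.45 FPKM in replicate 4 and Ptbp1 at 60.73 FPKM in replicate 5. In the WT group they were Prpf19 at 17.64 FPKM in replicate 1, Scaf4 at 16.01 FPKM in replicate 2 and Srrm1 at 46.66 FPKM in replicate 4. Hnrnpr in replicate 1 of the KO-labelled group was the highest of its group and still below all WT libraries.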

How the results depend on the processing

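The number of members that fell, 24, was 14 with library size alone, 13 in each limma fit of FPKM, 1 at an adjusted p under 0.01, and 8 to 34 without single libraries. It stayed within 1.5 times of 24 under the other settings run except the replicate block, given below. Of all tested genes 4.87% fell in the limma fit of log2(FPKM + 0.1) and 4.85% in that of log2(FPKM + 1). The 1 rise, Snrpn, was kept under every scaling, filter and tool run, and the count of rises was 0 at an adjusted p under 0.01 and 0 to 1 without single libraries. Calls over all genes, 2606, numbered 551 and 4178 at thresholds of 0.01 and 0.1 and 1172 to 3683 without single libraries. The members' median log2 fold change of -0.157 was -0.0882 with library size alone, -0.0904 and -0.0833 in limma fits of log2(FPKM + 0.1) and log2(FPKM + 1), and -0.197 to -0.149 without single libraries. The cause of these differences was not tested.

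The deviations of same-numbered libraries of the 2 groups had correlations of 0.01, -0.07 and -0.13 for numbers 1, 2 and 4. Those of unlike numbers ran from -0.16 to 0.21. So few values cannot show whether the numbers pair the libraries, which the labels do not state. With the number as a replicate block, calls over all genes were 141, and 0 members rose and 1 fell, the members' median being -0.14. That 1 member was not among the members that fell without the block. All of the latter lost their call with the block, including those that had kept it without any single library. Of all tested genes 0.217% fell with the block.

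Values near 0 changed sign. With library size alone and in limma fits of log2(FPKM + 0.1) and log2(FPKM + 1), the log2 fold change was 0.0201, 0.0121 and 0.012 for Snrpb, 0.026, 0.0241 and 0.0236 for Sf3b1, 0.0075, 0.0034 and 0.0034 for Pabpc1, 0.028, 0.0228 and 0.0227 for Ybx1, and 0.0182, 0.0353 and 0.0284 for Abcc4. Abcc4 also reached 0.0148 with the replicate block. Raly was 0.0023 in both limma fits, and Magohb ran from -0.0227 (without replicate 5 of the KO-labelled group) to 0.165 (without WT replicate 3) across the leave-outs. Magohb had 34 to 53 counts per library and an SE of 0.18, against a median SE of 0.09 over the tested members.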
